A study of Homo sapiens with 10 samples.

Results

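The BCL2 family comprises the proteins that decide whether the outer membrane of the mitochondrion is breached during apoptosis. The 10 family genes described here are BCL2, BCL2L1, MCL1, BAX, BAK1, BCL2L11, PMAIP1, BBC3, BID and BAD, taken by symbol from the 26485 genes listed in the count files. All 10 were listed and all 10 had enough reads to be tested. They were measured by sequencing of polyadenylated RNA from SW480, an established human colorectal adenocarcinoma cell line, which is labelled wild type here and was grown in serum-supplemented medium with no stated treatment. Cells were sorted by flow cytometry with an antibody against the guidance receptor ROBO1 into a positive fraction, which the submitters call SW480-CBC, and a negative fraction, which they call SW480-RSC; the fractions are named ROBO1pos and ROBO1neg here. Each fraction had 5 replicates, and the only comparison is between the fractions. All libraries come from 1 line. Whether replicates came from separate cultures is not stated, so the p-values reflect only how these libraries vary, and that variation may be technical.

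The family has 3 classes that work against each other by direct binding. Inhibitors (BCL2, BCL-XL encoded by BCL2L1, and MCL1) hold in check the pore formers (BAX and BAK, the latter encoded by BAK1), which otherwise assemble in the outer membrane and release cytochrome c. BH3-only proteins (BIM encoded by BCL2L11, NOXA encoded by PMAIP1, PUMA encoded by BBC3, BID and BAD) occupy the inhibitors or activate the pore formers; BIM and PUMA bind all of the inhibitors, NOXA chiefly MCL1, and BAD chiefly BCL2 and BCL-XL. In the intestine this balance sets how readily crypt cells die after damage, and in tumours it sets sensitivity to drugs that mimic the BH3 domain. The measurements are of RNA, and protein levels and binding were not measured.

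The libraries held between 23228686 and 29539100 reads on genes, which were 57.5% to 59.8% of all listed reads in ROBO1pos and 63.1% to 63.8% in ROBO1neg. ROBO1, the sorting receptor, averaged 429.5 ± 26.7 CPM (a gene's counts as a share of all gene counts, on the usual CPM scale after TMM scaling of the libraries; mean ± SD, n = 5) in ROBO1pos and 7.25 ± 1.47 in ROBO1neg, which matched the labels in every library. Of 8 epithelial markers, 7 passed the filter on low counts; their summed level was 5296 to 6545 CPM in ROBO1pos and 7948 to 10470 in ROBO1neg, and the differentiation keratin KRT20 had 0 counts. The sum was mostly KRT8 and KRT18, and the markers went both ways. EPCAM averaged 679.9 CPM in ROBO1pos against 302.5 in ROBO1neg. CDX1 was also higher in ROBO1pos, but at only 0.744 against 0.0306 CPM, with 99 counts over all libraries. Higher in ROBO1neg were 4 (KRT8, KRT18, KRT19 and CDH1), and CDX2 was not called. Summed markers of other cell types were low, at 3.75 to 5.13 CPM in ROBO1pos against 4.26 to 5.60 in ROBO1neg for 8 leukocyte genes, 10.3 to 14.1 against 13.99 to 22.6 for 7 fibroblast genes (COL3A1 at 0 counts) and 0.504 to 0.890 against 2.34 to 4.26 for 4 endothelial genes. The part of these markers and of the share of reads on genes in the results was not tested.

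Promoter sequence is shown for PMAIP1 and BCL2L11, the BH3-only genes with the largest differences in opposite directions, and for BCL2L1, the more abundant of the inhibitors that differed. RefSeq promoters (GRCh38.p14) matched 9 of the 10 members, all but MCL1. Each line gives the 250 bases just before the annotated gene, 5′ to 3′ on the strand of the gene, and capitals mark every match on either strand to 7 short motifs: the GC box (GGGCGG), the E-box (CACGTG), AP-1 (TGANTCA), the CRE core (TGACGT), the forkhead FOXO motif (GTAAACA), the CCAAT box (CCAAT) and the TEAD motif (GGAATG).
PMAIP1 (chr18:59899746-59899995, + strand): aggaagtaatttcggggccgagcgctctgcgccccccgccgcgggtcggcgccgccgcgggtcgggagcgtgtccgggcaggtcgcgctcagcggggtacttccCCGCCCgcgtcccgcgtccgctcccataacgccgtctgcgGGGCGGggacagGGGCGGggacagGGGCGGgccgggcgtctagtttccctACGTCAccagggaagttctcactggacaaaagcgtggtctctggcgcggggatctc
BCL2L11 (chr2:111120664-111120913, + strand): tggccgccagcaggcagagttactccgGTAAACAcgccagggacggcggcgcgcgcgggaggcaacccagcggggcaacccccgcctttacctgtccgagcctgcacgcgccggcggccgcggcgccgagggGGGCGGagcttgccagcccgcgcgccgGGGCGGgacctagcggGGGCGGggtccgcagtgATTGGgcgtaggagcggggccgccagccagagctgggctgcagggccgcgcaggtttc
BCL2L1 (chr20:31723964-31724213, - strand): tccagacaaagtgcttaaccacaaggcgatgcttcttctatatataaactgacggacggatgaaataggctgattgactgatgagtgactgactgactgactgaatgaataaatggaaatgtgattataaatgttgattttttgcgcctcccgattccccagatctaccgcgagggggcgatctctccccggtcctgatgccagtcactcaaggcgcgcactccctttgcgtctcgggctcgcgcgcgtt

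The windows differed in their motifs. PMAIP1 held 4 GC boxes and 1 CRE core, BCL2L11 held 3 GC boxes, 1 FOXO motif and 1 CCAAT box, and BCL2L1 held none of the 7, so its line has no capitals. No match overlapped another. Among all 35116 listed promoter windows of this length, 42.6% held a GC box, 32.0% a CCAAT box, 11.9% a TEAD motif, 7.1% a CRE core, 6.57% an AP-1 motif, 6.34% an E-box and 2.98% a FOXO motif. A match is a run of letters and not a measured binding site, and the sequence is the reference, not that of the SW480 genome.

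Equal numbers of members were called higher in each fraction. The summed level of the 10 members was 812.4 to 853.6 CPM in ROBO1pos and 1151 to 1198 CPM in ROBO1neg. The gap between these sums came from BCL2L1, which averaged 227.7 CPM in ROBO1pos and 590.5 in ROBO1neg. It is therefore no difference of the family as a whole. In a quasi-likelihood fit with edgeR, with p-values adjusted by Benjamini-Hochberg over all 14932 genes tested, 4 members (BCL2, BCL2L11, BAX and BAK1) were higher in ROBO1pos, 4 (BCL2L1, PMAIP1, BID and BAD) were higher in ROBO1neg, and MCL1 and BBC3 were not called. Of all genes tested, 41.6% were called higher in ROBO1pos, 40.4% higher in ROBO1neg and 82.0% in either direction, so a count of 8 in 10 is near the background and is no result about the family. The libraries of the fractions did not overlap for 8 of 10 members and for 71.9% of all genes tested. The median log2 fold change (log2FC, ROBO1pos minus ROBO1neg throughout) was -0.0030 over the members and 0.019 over all genes tested. Called and at least 2-fold apart were 5 members (BCL2, BCL2L1, BCL2L11, PMAIP1 and BAD), against 30.3% of all genes, and the same 5 passed a test against a 1.5-fold difference, against 41.8% of all genes. Inhibitors and BH3-only genes were called in both directions, and both pore formers in 1.

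**Figure D1:**
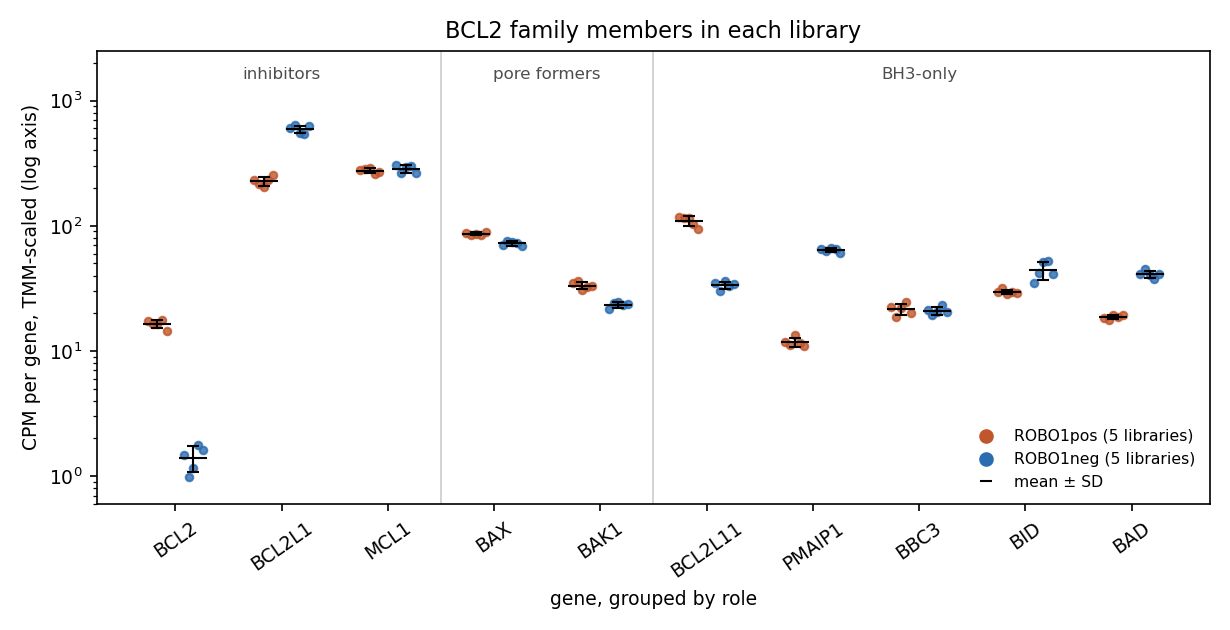
Level of each family member in every library, as TMM-scaled CPM on a log axis, with the mean and SD over 5 libraries as black bars and genes grouped by role. BCL2 and BCL2L1 separate the fractions in opposite directions, as do BCL2L11 and PMAIP1, while MCL1 and BBC3 overlap; levels of different genes are not comparable here since gene length is not taken into account.

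Among the inhibitors, the fractions had opposite patterns of BCL2 and BCL2L1 at a like level of MCL1. BCL2 (chromosome 18, 63123346 to 63320090, GRCh38.p14), the founding member of the family and the target of the drug venetoclax, was at 17.3, 16.3, 16.4, 17.7 and 14.4 CPM in ROBO1pos replicates 1 to 5 and at 1.49, 0.991, 1.17, 1.77 and 1.62 CPM in ROBO1neg. Every ROBO1pos library lay above every ROBO1neg library. In RNA from a whole fraction, fewer cells that express a gene and less RNA per cell cannot be told apart. The log2FC was 3.52 (SE 0.13, edgeR adjusted p = 1.0e-11), an 11.5-fold difference, and 6.97% of all genes tested had a larger one in either direction. The ROBO1neg levels rested on 23 to 52 reads per library, and their coefficient of variation, 22.9%, was the largest of the 10 members in that fraction.

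BCL2L1 (chromosome 20, 31664452 to 31723963) encodes BCL-XL and, by alternative splicing, a shorter pro-apoptotic form that gene counts do not separate. It was at 233, 215, 204, 233 and 254 CPM in ROBO1pos and at 600, 634, 554, 542 and 622 CPM in ROBO1neg. All ROBO1neg libraries were above all ROBO1pos libraries, by more than the spread within either fraction. The log2FC was -1.38 (SE 0.063, edgeR adjusted p = 9.0e-11), a 2.59-fold difference. ABALON, a non-coding gene on the opposite strand within the BCL2L1 locus, averaged 0.407 ± 0.244 CPM in ROBO1pos and 1.22 ± 0.345 in ROBO1neg, far below BCL2L1 in either fraction.

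MCL1 (chromosome 1, 150574558 to 150579610), an inhibitor with a short-lived protein, did not differ detectably. It was at 281, 283, 290, 258 and 269 CPM in ROBO1pos and at 305, 264, 293, 301 and 263 CPM in ROBO1neg. These ranges overlap, and the log2FC was -0.047 with a 95% interval of -0.16 to 0.066 (edgeR adjusted p = 0.413), so a difference as large as that of BCL2L1 lay outside the interval. With upper-quartile scaling the estimate changed sign, to 0.016.

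Both pore formers were somewhat higher in ROBO1pos. BAX (chromosome 19, 48954875 to 48961798), which moves from the cytosol to the mitochondrion when activated, ranged from 84.3 to 89.8 CPM in ROBO1pos and from 68.4 to 75.9 CPM in ROBO1neg. The log2FC was 0.26 (SE 0.040, edgeR adjusted p = 3.0e-05). BAK1 (chromosome 6, 33572552 to 33580276), whose protein resides in the outer membrane, ranged from 30.4 to 36.0 CPM in ROBO1pos and from 21.5 to 24.7 CPM in ROBO1neg, a log2FC of 0.51 (SE 0.059, edgeR adjusted p = 1.9e-06). Libraries of the fractions did not overlap for either gene, but the differences were 1.20-fold and 1.42-fold, and neither gene passed the test against 1.5-fold. BAK1 has 2 processed pseudogenes, BAK1P1 and BAK1P2, so its count is uncertain where reads match them.

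The BH3-only genes included large differences in both directions. PMAIP1 (chromosome 18, 59899996 to 59904305), encoding the MCL1 antagonist NOXA, was at 11.8, 11.2, 13.4, 11.6 and 11.01 CPM in ROBO1pos and at 65.4, 62.5, 66.9, 64.8 and 60.7 CPM in ROBO1neg. Every ROBO1neg library was far above every ROBO1pos library, and libraries within a fraction were close to each other. The log2FC was -2.44 (SE 0.058, edgeR adjusted p = 1.9e-13), a 5.42-fold difference, and 11.5% of all genes tested had a larger one in either direction. PMAIP1 had the smallest coefficient of variation of the members in ROBO1neg, 3.86%.

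BCL2L11 (chromosome 2, 111120914 to 111168445), encoding BIM, went the other way. It was at 117, 115, 116, 103 and 94.7 CPM in ROBO1pos and at 34.8, 30.0, 35.9, 33.1 and 34.1 CPM in ROBO1neg. The fractions did not overlap, and ROBO1pos replicates 4 and 5 were the lowest of that fraction. The log2FC was 1.70 (SE 0.066, edgeR adjusted p = 1.8e-11), a 3.25-fold difference. MIR4435-2HG, a long non-coding gene annotated over the same locus on the opposite strand, differed in the opposite direction, at 9.95 ± 1.02 CPM in ROBO1pos and 55.7 ± 2.598 in ROBO1neg. The sources used here do not say whether counting used the strand, so reads from places where the genes overlap cannot be told apart.

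BAD (chromosome 11, 64269828 to 64284704), a sensitiser that phosphorylation by survival kinases inactivates, was at 18.5, 17.7, 19.2, 18.8 and 19.4 CPM in ROBO1pos and at 41.1, 44.8, 40.6, 37.7 and 41.1 CPM in ROBO1neg. The fractions were clearly apart, with a log2FC of -1.13 (SE 0.055, edgeR adjusted p = 1.5e-10), a 2.20-fold difference. GPR137, which overlaps BAD on the opposite strand, averaged 26.3 ± 1.16 CPM in ROBO1pos and 35.4 ± 3.69 in ROBO1neg, the same direction with a smaller difference (log2FC -0.43).

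BID (chromosome 22, 17734138 to 17774665) links death receptors to the mitochondrion after cleavage by caspase-8. It was at 29.8, 31.7, 28.3, 29.6 and 29.01 CPM in ROBO1pos and at 34.6, 41.7, 51.5, 52.0 and 41.5 CPM in ROBO1neg. ROBO1neg libraries were all higher but uneven, with replicates 3 and 4 highest. The log2FC was -0.58 (SE 0.096, edgeR adjusted p = 6.5e-05); without ROBO1neg replicates 3 and 4, a choice made after these values were seen, it was -0.41 (adjusted p = 2.1e-04). BID did not pass the test against 1.5-fold.

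BBC3 (chromosome 19, 47220824 to 47232860), which encodes PUMA, a target of p53, ranged from 18.8 to 24.7 CPM in ROBO1pos and from 19.3 to 23.1 CPM in ROBO1neg. The ranges overlap, and the log2FC of 0.041 had a 95% interval of -0.13 to 0.21 (edgeR adjusted p = 0.628). Without ROBO1pos replicate 4, the highest of its fraction, the estimate was -0.014.

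**Figure D2:**
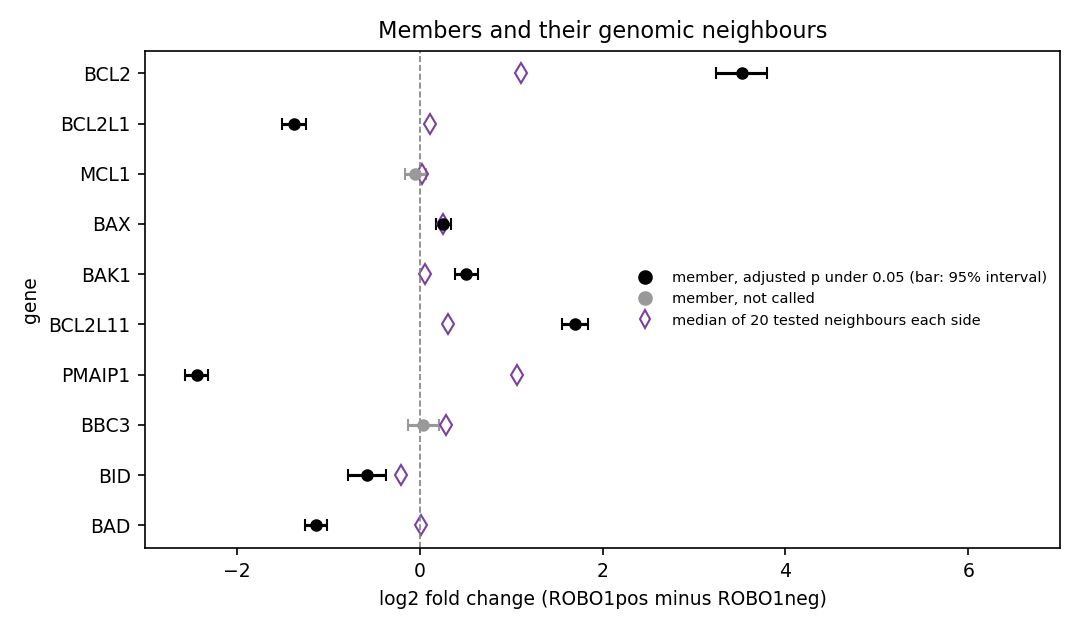
Log2 fold change of each member (ROBO1pos minus ROBO1neg) with its 95% interval, black where called and grey where not, and the median log2 fold change of up to 20 tested genes on each side of it along the chromosome (open diamonds). The diamond lies within the member's interval for MCL1 and BAX, and on the opposite side of zero from the called member for PMAIP1 (1.06 against -2.44), BCL2L1 and BAD.

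Each member was set beside its tested neighbours along the chromosome, 20 on each side. BID had 31 in all, because fewer than 20 tested genes were placed toward an end of its chromosome. BCL2 and PMAIP1 lie on chromosome 18 with their lower coordinates 3.22 Mb apart. Both had 36 of 40 neighbours higher in ROBO1pos and 3 higher in ROBO1neg, with medians of 1.11 and 1.06. Their neighbours are largely the same genes, and each set includes the other member, so both describe a single stretch. Between BCL2 and PMAIP1 start 4 tested genes (PIGN, KIAA1468, ZCCHC2 and PHLPP1). All 4 were higher in ROBO1pos, with log2FC values from 0.65 to 1.52. BCL2 differed in the direction of its neighbours and by more than their median; with that median taken as an offset in the fit, its log2FC was 2.41 (edgeR adjusted p = 6.1e-10). PMAIP1 differed against its neighbours, and with the offset its log2FC was -3.50 (edgeR adjusted p = 1.2e-14).

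**Figure D3:**
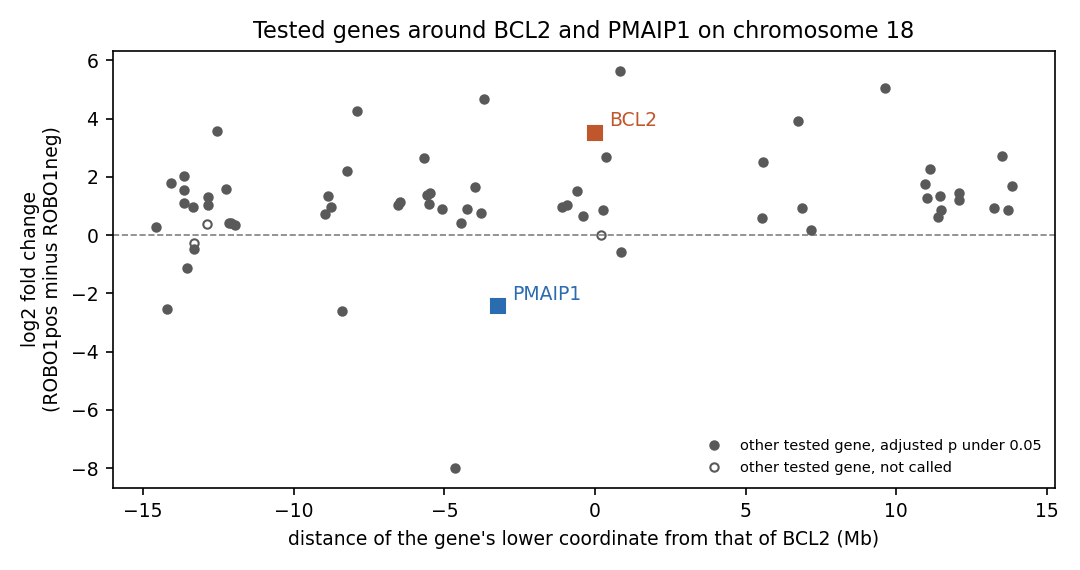
Log2 fold change (ROBO1pos minus ROBO1neg) of tested genes on chromosome 18 within 15 Mb of BCL2, by distance between lower coordinates; filled points passed an adjusted p of 0.05 and open points did not. Most genes lie above zero, BCL2 at 3.52 is among the higher ones, and PMAIP1 at -2.44 is among the few below zero, of which ALPK2 at -7.99 is the lowest.

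For the other members the offset changed a call for BAX and BBC3. BAX had a neighbour median of 0.25, and with it as an offset its log2FC was 0.0050 (edgeR adjusted p = 0.907), so that BAX was not called. BBC3 had a neighbour median of 0.28 and became lower in ROBO1pos, at -0.25 (edgeR adjusted p = 0.0086). That call rests on the number of neighbours taken. With 10 on each side the BBC3 median was 0.13, and its log2FC less that median was only -0.089, which was not tested. BAK1 (0.44), BCL2L11 (1.39), BCL2L1 (-1.49), BID (-0.38) and BAD (-1.15) were still called with the offset, and MCL1 (-0.073) was still not called. A median of neighbours is itself an estimate, and the fit takes it as known.

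Levels of different members were compared per length, as CPM per kilobase of merged exons in GENCODE 29, which may not be the gene models the authors counted on. BCL2L1, MCL1 and BAX were the 3 highest members in both fractions, in that order. In ROBO1pos they were at 79.7 ± 6.63, 67.6 ± 3.17 and 61.3 ± 1.70 CPM per kilobase, followed by BCL2L11 at 17.9 ± 1.60, BAK1 at 15.1 ± 0.974 and BAD at 14.1 ± 0.492. BID (10.6 ± 0.452), BBC3 (10.3 ± 1.07), PMAIP1 (5.63 ± 0.460) and BCL2 (1.40 ± 0.108) completed the order. The ranges of MCL1 and BAX, of BCL2L11 and BAK1, of BAK1 and BAD, and of BID and BBC3 overlapped in ROBO1pos.

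In ROBO1neg, BCL2L1 stood further above the rest, at 206.5 ± 14.3 CPM per kilobase, against 69.8 ± 4.93 for MCL1 and 51.2 ± 2.16 for BAX. BAD and PMAIP1 came next at 31.0 ± 1.9 and 30.5 ± 1.18, with overlapping ranges, then BID at 15.8 ± 2.64, BAK1 at 10.6 ± 0.568 and BBC3 at 10.0 ± 0.683, the last pair overlapping. BCL2L11 was the ninth of the family here, at 5.51 ± 0.369, where it had been the fourth in ROBO1pos, and PMAIP1 moved from the ninth place to the fifth. BCL2 was the lowest member in both fractions, at 0.120 ± 0.0275 in ROBO1neg. With the longest coding transcript as the length in place of merged exons, BAD and BAK1 changed places in ROBO1pos and BBC3 and BAK1 in ROBO1neg, and no other order changed.

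Ratios between members within a library do not depend on the scaling of libraries, and the pairs below encode proteins that bind each other or share a role. The ratio of PMAIP1 to MCL1 counts was 0.0428 ± 0.00282 in ROBO1pos and 0.225 ± 0.00979 in ROBO1neg, 5.26 times higher. The ratio of BCL2L11 to BCL2L1 was 0.373 to 0.567 in ROBO1pos and 0.0473 to 0.0649 in ROBO1neg, and that of BCL2L11 to MCL1 was 0.353 to 0.415 and 0.110 to 0.129. The ratio of BCL2L11 to BCL2 went the other way, at 5.84 to 7.09 in ROBO1pos and 18.7 to 30.7 in ROBO1neg. BIM transcripts were thus more plentiful in ROBO1pos relative to those of BCL2L1 and MCL1, and in ROBO1neg relative to those of BCL2. The widest of the ratios computed was that of BCL2 to BCL2L1, at 0.0727 ± 0.00914 in ROBO1pos and 0.00241 ± 6.3e-04 in ROBO1neg, a 30.2-fold difference.

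The ratio of the pore former BAX to an inhibitor also turned with the inhibitor chosen. BAX to BCL2 was 5.30 ± 0.548 in ROBO1pos and 54.1 ± 15.5 in ROBO1neg, whereas BAX to BCL2L1 was 0.382 ± 0.0255 in ROBO1pos and 0.123 ± 0.0108 in ROBO1neg. BAD and BCL2L1 differed in the same direction and by similar factors, so their ratio was closer between the fractions, at 0.0763 to 0.0941 in ROBO1pos and 0.0660 to 0.0734 in ROBO1neg. The 2 BH3-only genes with opposite differences had a PMAIP1 to BCL2L11 ratio of 0.109 ± 0.00886 in ROBO1pos and 1.91 ± 0.114 in ROBO1neg. None of the 10 ratios computed had overlapping fractions; they restate the members' own differences and are given without a test.

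**Figure D4:**
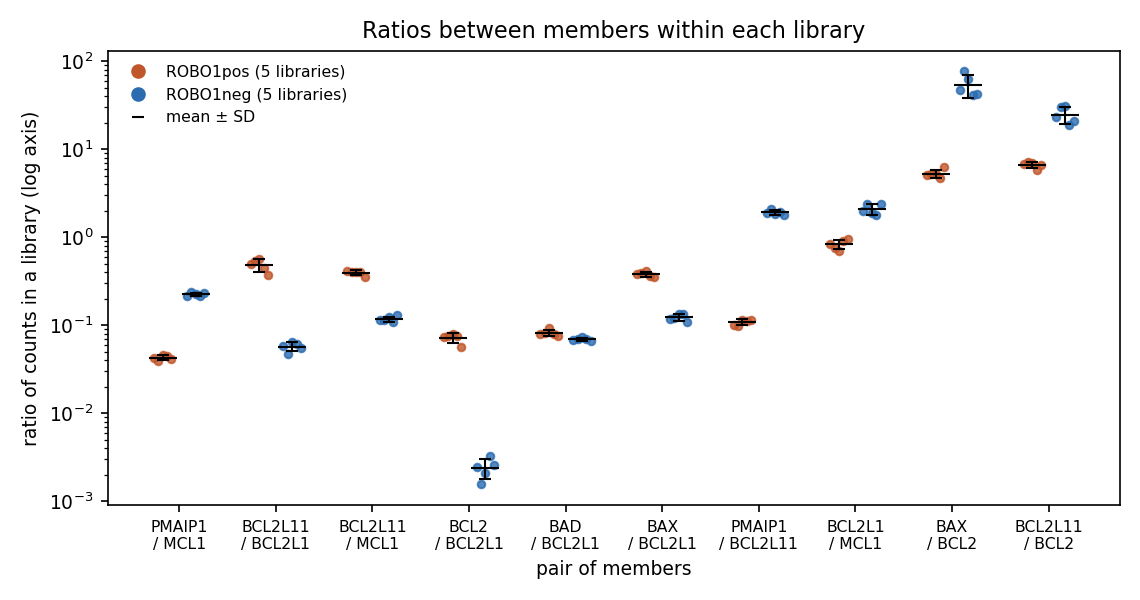
Ratio of read counts between pairs of members in each library, on a log axis, with the mean and SD over 5 libraries as black bars. None of the 10 pairs overlap, BCL2 over BCL2L1 differs the most between the fractions and BAD over BCL2L1 the least, and the ratios of BAX and BCL2L11 to BCL2 are higher in ROBO1neg while those to BCL2L1 are higher in ROBO1pos.

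In the main fit the remaining genes of the family were higher in ROBO1neg, not called or not tested. Of 13 listed, 8 were tested, 5 were higher in ROBO1neg (against 40.4% of all genes tested) and 3 were not called by edgeR, with a median log2FC of -0.34 against 0.019 over all genes. With no filter on low counts all 13 were tested and 8 were higher in ROBO1neg, against 6808 of 20916 genes. The genes this added to the test had at most 19 counts in any library. DESeq2 gave 7 (against 6640 of 18117 genes) and the test against 1.5-fold gave 3 of 8 (against 3298 of 14932 genes). Some other settings called 1 gene higher in ROBO1pos: BCL2L13 with upper-quartile scaling (0.12, adjusted p = 0.0435) and with the neighbour offset (0.32), and BIK without ROBO1neg replicates 3 and 4 (0.34). BCL2L15, a family gene known from the gastrointestinal tract, was at 4.30 to 14.5 CPM in ROBO1pos and 158 to 164 CPM in ROBO1neg (log2FC -4.29, SE 0.21, edgeR adjusted p = 1.9e-10). BNIP3L, which acts in the removal of mitochondria, was at 55.0 ± 4.52 against 141 ± 3.42 CPM (log2FC -1.36), and BOK, a pore former that the inhibitors do not restrain, at 18.1 ± 1.75 against 34.3 ± 2.14 (log2FC -0.92). BCL2L2, the inhibitor BCL-W, and BCL2L12 were higher in ROBO1neg by smaller amounts, with log2FC values of -0.37 and -0.31. BCL2L13, BIK and BMF were not called, at 0.056, 0.13 and -0.24. BCL2A1, BCL2L10, BCL2L14, HRK and BNIP3 had at most 19 counts in any library and were not tested.

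Caspases and genes of the apoptosome, the complex that cytochrome c assembles, differed in both directions. All 11 were tested; 4 were higher in ROBO1pos, 4 higher in ROBO1neg and 3 were not called, near the shares over all genes. The split depended on the setting. With the neighbour offset 3 were higher in ROBO1pos and 7 in ROBO1neg, against 5806 and 5949 of 14607 genes. With upper-quartile scaling these were 5 and 3, against 6768 and 5656 of 14932 genes. In the test against 1.5-fold they were 3 and 2, against 2938 and 3298 of 14932 genes. CYCS, cytochrome c itself, averaged 490 ± 56.6 CPM in ROBO1pos and 266 ± 17.9 in ROBO1neg (log2FC 0.88), CASP9, the initiator caspase of the apoptosome, had a log2FC of 0.71, and DFFB, the nuclease that cuts DNA in dying cells, was at 43.7 ± 2.19 against 12.4 ± 0.978 CPM (log2FC 1.82). Its inhibitor DFFA was at 0.52, which became -0.19 with the neighbour offset. Among the initiators of the death receptor pathway, CASP10 was at 8.21 ± 1.12 CPM in ROBO1neg and at 1 to 4 counts per library in ROBO1pos (log2FC -6.63, SE 0.23, edgeR adjusted p = 6.1e-12), and CASP8, which cleaves BID, was at 44.5 ± 2.44 against 27.9 ± 1.85 CPM. CASP2 (-0.35) was also higher in ROBO1neg, and APAF1 (0.083) and CASP6 (-0.045) were not called.

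Inhibitors of the caspases and their antagonists had 7 of 8 genes tested, 2 higher in ROBO1pos, 4 higher in ROBO1neg and 1 not called. Of all genes tested, 41.6% and 40.4% were called in these directions, so the number called is near the background. The test against 1.5-fold left 1 in each direction, against 2938 and 3298 of 14932 genes. XIAP, the most direct caspase inhibitor of the group, averaged 127 ± 9.85 CPM in ROBO1neg and 90.5 ± 3.64 in ROBO1pos (log2FC -0.49). BIRC2 and BIRC3, ubiquitin ligases of the tumour necrosis factor receptor complex, were higher in ROBO1neg at -0.47 and -2.62. BIRC3 was uneven in ROBO1neg, at 20.4, 14.7, 118, 118 and 37.6 CPM, with replicates 3 and 4 highest as for BID, against 8.08 to 13.1 CPM in ROBO1pos. Without those replicates its log2FC was -1.28 (edgeR adjusted p = 7.4e-04) and that of BIRC2 was -0.28. BIRC5, survivin, was at -0.31. BIRC6, a very large ubiquitin-conjugating inhibitor, was higher in ROBO1pos at 0.80, as was the protease HTRA2 at 0.19, which was at -0.042 and not called with the neighbour offset. DIABLO, the released antagonist of this class, was at -0.070 and not called, and BIRC7 had at most 7 counts in any library.

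Of 6 genes for outer membrane proteins that bind the family, 4 were higher in ROBO1pos (against 41.6% of all genes tested), 1 was higher in ROBO1neg and 1 was not called. The test against 1.5-fold left 2 higher in ROBO1pos and 0 higher in ROBO1neg, against 2938 and 3298 of 14932 genes. The neighbour offset gave 4 and 2, against 5806 and 5949 of 14607 genes. Those higher in ROBO1pos were the channel genes VDAC2 (log2FC 0.75), whose protein binds BAK and BAX, VDAC3 (0.72) and VDAC1 (0.24), and MTCH2 (0.53), which encodes a receptor for cleaved BID. MTX2 was higher in ROBO1neg at -0.34, and MTX1, at -0.038, was not called. Enzymes that mark MCL1 protein for destruction or spare it had 7 genes tested. Of these, 4 were higher in ROBO1pos and 2 higher in ROBO1neg, against 41.6% and 40.4% of all genes tested. The test against 1.5-fold left 0 and 1, against 2938 and 3298 of 14932 genes. The ubiquitin ligase genes BTRC (0.50), FBXW7 (0.43), HUWE1 (0.25) and MARCH5 (0.12) were higher in ROBO1pos, and the deubiquitinase genes USP13 (-0.69) and USP9X (-0.25) were higher in ROBO1neg, while CUL5 (-0.024) was not called. The call of MARCH5 (edgeR adjusted p = 0.0329) was lost in 10 of 21 alternatives, among them DESeq2 (adjusted p = 0.0693), the replicate block (0.0503) and 6 of 10 fits without 1 library. With the neighbour offset HUWE1 was at 0.012 and not called, and USP13 was at 0.20 in the other direction.

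**Figure D5:**
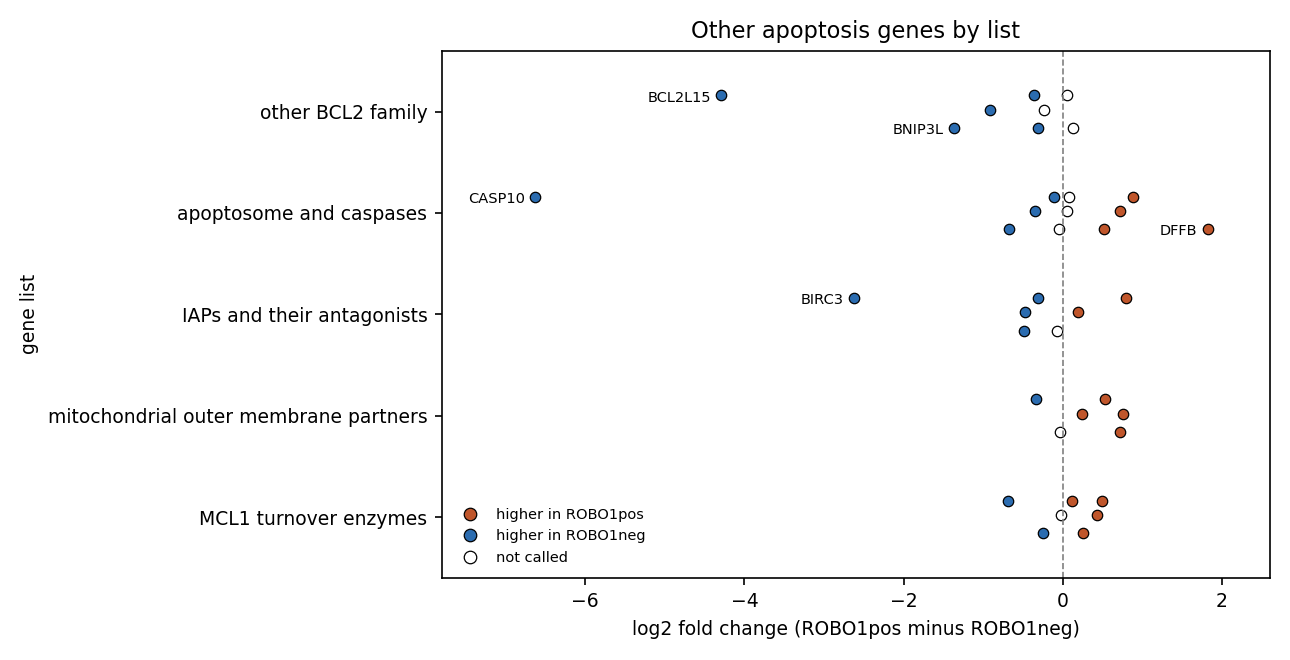
Log2 fold change (ROBO1pos minus ROBO1neg) of each tested gene of 5 other apoptosis lists, coloured by the direction in which it was called and open where not called; names are given where the difference exceeded 1 on the log2 scale. Among the other family genes, 5 of 8 were called higher in ROBO1neg with TMM scaling, and CASP10 (-6.63), BCL2L15 (-4.29) and BIRC3 (-2.62) lie furthest out.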

How the data were processed

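The authors deposited 1 table of whole-number read counts for each library, with no normalisation. The libraries came from a kit that keeps the strand, per the labels' protocols. The submitters' processing notes name STAR 2.6.0c, SAMtools 1.9, DESeq2 1.24.0 and the build GRCh38. Not given in the sources used here are the counting tool, the gene models it used and whether it used the strand. Entries that name no gene (reads on no feature, 14.1% to 16.7% of all listed reads, at several places, 20.5% to 26.2%, or ambiguous, 0.806% to 0.881%) were left out.

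Counts were fitted with edgeR 4.0.16 in R 4.3.3 (filterByExpr, TMM, quasi-likelihood test with group as the only term); an adjusted p under 0.05 made a call. Standard errors came from the coefficient and its F statistic. The fit was run on simulated counts in which 200 genes were changed. It recovered 42 of 67 genes changed 1.5-fold, 60 of 67 changed 2-fold and 66 of 66 changed 4-fold. In the data 82.0% of genes were called, so the simulation did not test scaling under so broad a difference. The alternatives were other scalings and filters, DESeq2 1.42.0, limma 3.58.1 (voom), a test against 1.5-fold, a replicate block, each library left out, and the median of 20 neighbouring genes on each side as an offset. Neighbours were placed through RefSeq (13663 genes by symbol, 944 by an older name, 325 not placed). Pairs of libraries within a fraction differed by 3.54 to 22.0 times the sampling variance, so none was treated as a duplicate.

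The members, lists and ratios were chosen with earlier results of these data known, as were the promoters shown. Named were all members, up to 3 genes per direction of each other list by adjusted p, and untested genes; the other list genes named, GPR137, ALPK2, MIR4435-2HG, ABALON and the genes between PMAIP1 and BCL2 were chosen after their values were seen. Not every gene counted in the lists is reported here by name.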

Additional observations from a re-analysis of the deposited data

Results flagged for a closer look

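In 66 sets of 5 libraries (10 members and 23 other named genes, in each fraction), the highest or lowest library was compared with its nearest neighbour by Dixon's test, which chance passes in about 1 of 20 sets. No member had such a library. DFFB, the apoptotic nuclease, was at 14.1 CPM in ROBO1neg replicate 3, where the next library was at 12.2 CPM. MTCH2, the BID receptor gene, was at 192 CPM in ROBO1pos replicate 2, where the next was at 182 CPM. In both genes the fractions still did not overlap.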

How the results depend on the processing

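Over 21 alternatives, the 10 members gave 210 log2 fold changes, of which 203 kept their direction and their side of the threshold. The test against 1.5-fold left 6236 of 12250 genes and 5 of 8 members (2 higher in ROBO1pos); BAX, BAK1 and BID were lost, as follows from its stricter null. Without 1 library each, the counts of members called were 8 (4 and 4) and those of all genes ran from 12110 to 12354. Signs turned for MCL1 under upper-quartile scaling (0.016), for BBC3 without ROBO1pos replicate 4 (-0.014, the lowest over single libraries left out, the highest being 0.084) and, with the neighbour offset, for BBC3 (-0.25), DFFA (-0.19), HTRA2 (-0.042) and USP13 (0.20); the cause was not tested. With 10 neighbours on each side in place of 20, the neighbour medians turned sign for MCL1 (-0.045), BCL2L11 (-0.049), BID (0.048) and BAD (-0.091). With 20 those of BCL2L11 and BID had been 0.31 and -0.20, so offsets away from zero also depend on that choice. The median of BBC3 went from 0.28 to 0.13, while those of BCL2 (0.92) and PMAIP1 (0.99) stayed near 1. With the replicate number as a block, 12312 genes and 8 members were called, and among the other lists MARCH5 was lost (adjusted p = 0.0503). Same-numbered libraries correlated at 0.071 to 0.192, all positive and over 0.1 in 3 of 5 pairs. Of the libraries, 5 of 5 ROBO1pos and 3 of 5 ROBO1neg correlated best with their own number. The correlations therefore do not show that the samples are unpaired. The labels do not say that the number marks a shared culture or day, so the main fit has no block. Depth limits BCL2 in ROBO1neg, at 23 to 52 reads per library, and the untested family genes.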
